A study of Mus musculus with 8 samples.

Results

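Tnfrsf11b and Rspo2 are secreted-factor genes of the skeleton that lie on mouse chromosome 15, and both carried H3K36me3 domains with some of the lowest ratios between mutant and wild-type cells in the series. The regions described are all rows of the 3 deposited peak tables that overlap by at least 1 bp a 400 kb window around either gene, from 53900000 to 54300000 for Tnfrsf11b and from 42700000 to 43100000 for Rspo2. This gave 11 regions of the 7689 listed in all: 4 of 4999 for H3K36me3, 7 of 1691 for H3K36me2 and 0 of 999 for H3K27me3. The loci were chosen by the ratio of K36M to WT H3K36me3, as they hold 3 of its lowest values, so the H3K36me3 ratios and their ranks are given as a description and nothing is drawn from them. The H3K36me2 and H3K27me3 values come from other precipitations and were not part of that choice, although they were already known in part when the loci were proposed.

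The data are spike-in ChIP-seq (ChIP-Rx) from C3H10T1/2 cells, a line of mesenchymal progenitors from C3H mouse embryos, which can form cartilage, bone and fat cells. All cells, the controls included, stably expressed histone H3.3 with a FLAG-HA tag. In the WT cells this H3.3 was wild type, and in the K36M cells it was a mutant with methionine in place of lysine 36. Both were used at passages 10 to 15, and whether a line was 1 clone or a pool of cells is not stated in the labels. Before precipitation the mouse chromatin was mixed with 5% of its amount from Drosophila S2 cells, as a reference. Each of the 3 marks has 1 library per genotype, so no comparison below has a replicate check or a p-value, and the 2 input libraries were not analysed here.

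Tnfrsf11b (gene ID 18383) encodes osteoprotegerin, a secreted decoy receptor. It captures the RANK ligand and so restrains the formation of osteoclasts, the cells that resorb bone, and mesenchymal and bone-forming cells are a main source of it. Rspo2 (gene ID 239405) encodes R-spondin-2, a secreted ligand of LGR receptors that raises WNT signalling by removing ubiquitin ligases that clear WNT receptors from the cell surface, and it is known for its part in limb and skeletal development. SETD2 lays down H3K36me3 along genes while they are transcribed, H3K36me2 is made mainly by NSD enzymes in genes and in the space between them, and H3K27me3 by Polycomb repressive complex 2 over silenced chromatin. The K36M histone is known to inhibit these H3K36 methyltransferases. RNA was not measured in these libraries, so whether either gene was transcribed differently is not known from them.

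Values are reads in a region scaled by the authors to the Drosophila reads, here called normalized reads, and densities are normalized reads per kb of region. Positions are those of the deposited tables (build mm9), which by their regular starts appear to count from 0, so a genome browser would show them 1 base higher. In that build Tnfrsf11b lies at about 54.08 to 54.11 Mb and Rspo2 at about 42.85 to 43.00 Mb, and overlaps with the genes are exact only to that rounding. Intervals in parentheses are exact Clopper-Pearson 95% intervals, which cover counting error only. The 11 regions held 1346 to 9121 reads in WT and 426 to 2537 in K36M, so counting error was small, while the error between cultures and precipitations was not measured. Over all listed regions the K36M library was lower by a median log2 ratio of −1.71 for H3K36me3 and −2.07 for H3K36me2, and by −0.08 for H3K27me3. On chromosome 15 the medians were −1.88 (279 regions), −2.15 (291 regions) and −0.22 (119 regions), below those of the whole tables for each mark.

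At Tnfrsf11b, the receptor gene, H3K36me3 formed 1 domain that coincided with the gene, and H3K36me2 filled the space on both sides of it. The H3K36me3 region of 36.4 kb, from 54073200 to 54109599, covered 98.7% of the gene interval and held 1001.5 normalized reads in the WT library against 126 in the K36M library. It was thus 7.94-fold lower in K36M (7.25 to 8.71), with a log2 ratio of −2.99. This is 1.28 below the median of H3K36me3 regions on the log2 scale (deviation −1.28) and 1.11 below the chromosome 15 median (deviation −1.11). Only 2 of the 4999 H3K36me3 regions, both shorter, had a lower ratio. Its WT density of 27.5 normalized reads per kb was higher than that of 93.5% of H3K36me3 regions, whereas its K36M density of 3.46 was higher than that of 3.64%. Because the ratio is divided by the WT value, a region picked for a low ratio is more likely to have a high WT density.

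The 5 H3K36me2 regions of the Tnfrsf11b window covered 79.8% of the window and lay on both sides of the gene. The nearest on either side ended at 54080599 and began at 54105000, which left a gap of 24.4 kb in which only H3K36me3 was listed. H3K36me2 and H3K36me3 shared 7.4 kb at the lower edge of the gene domain and 4.6 kb at its upper edge. In WT the 5 regions had nearly the same density, between 45.3 and 49.3 normalized reads per kb against a median of 42.6 for the mark. In K36M they had 7.05 to 7.94 against a median of 10.3.

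**Figure D1:**
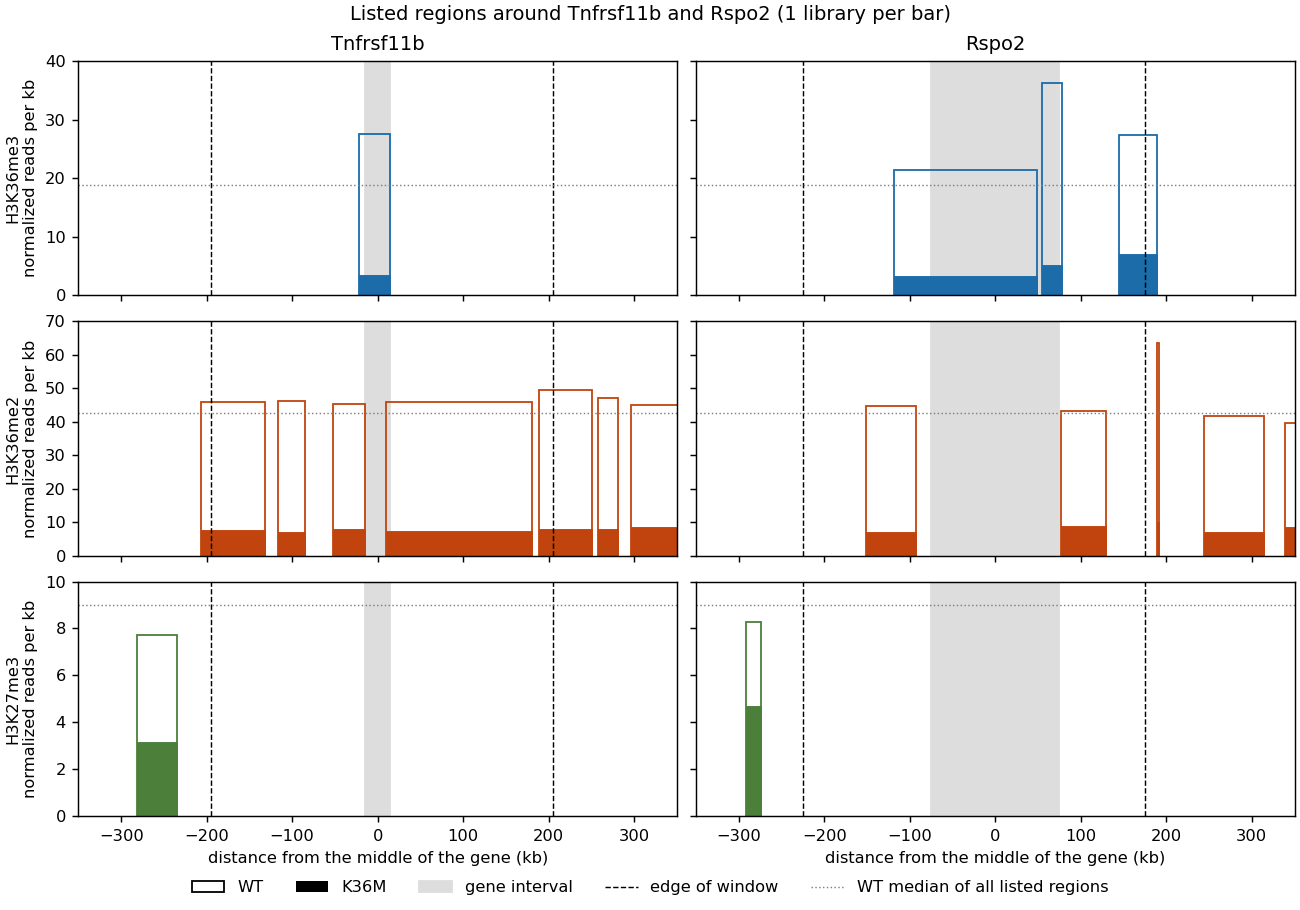
Signal density (normalized reads per kb, y axis) of each listed region against its distance from the middle of the gene (kb, x axis) for 3 marks at Tnfrsf11b (left) and Rspo2 (right). Open bars are the WT library and filled bars the K36M library, grey bands the genes, dashed lines the window edges and dotted lines the WT median of all listed regions. H3K36me3 lies over each gene, H3K36me2 lies beside it, and the nearest H3K27me3 regions lie outside the windows.

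The H3K36me2 region next to the gene on its upper side was the largest of the 5, 170.6 kb from 54105000 to 54275599. Its signal was 7852 normalized reads in WT against 1261.0 in K36M, 6.23-fold lower (5.95 to 6.52). The next one, from 54283200 to 54346199, had 3108 and 499.7 and was 6.22-fold lower (5.78 to 6.70). Both ratios were below that of the median H3K36me2 region, which was 4.19-fold lower. They were also below the chromosome 15 median, which was 4.45-fold lower. On the lower side, the region from 54043200 to 54080599 held 1696 normalized reads in WT against 296.9 in K36M, 5.71-fold lower (5.19 to 6.30). The region from 53978800 to 54010199 had 1454 and 221.5, 6.56-fold lower (5.88 to 7.33), and that from 53888800 to 53962799 had 3386 and 574.1, 5.90-fold lower (5.51 to 6.32). All 5 counting intervals shared the log2 ratios from −2.65 to −2.57, so the 5 regions could not be told apart by counting error. Their log2 ratios deviated by −0.45 to −0.65 from the median of the mark, and by −0.36 to −0.56 from that of chromosome 15. Summed over their 376.4 kb, H3K36me2 came to 17495 normalized reads in WT against 2853 in K36M, or 46.5 against 7.58 per kb, a ratio of 0.163 (0.158 to 0.168).

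At Rspo2, the ligand gene, the arrangement was the same on a larger scale: H3K36me3 over the gene and H3K36me2 beside it. H3K36me3 was listed as 2 regions over the gene, separated by 6.4 kb, and as another beyond its upper end. Together the 2 covered 95.7% of the gene interval. The long region of 166.4 kb, from 42806800 to 42973199, held 3557 normalized reads in WT against 558.1 in K36M and was 6.37-fold lower (6.10 to 6.66). The short region of 23.0 kb at the upper end of the gene, from 42979600 to 43002599, held 835.4 in WT against 119 in K36M and was 7.02-fold lower (6.38 to 7.73). Their log2 ratios of −2.67 and −2.81 deviated by −0.96 and −1.10 from the median of the mark, and by −0.79 and −0.93 from that of chromosome 15. The counting intervals of these 2 regions overlapped each other, and that of the short region also overlapped the interval of the Tnfrsf11b domain.

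Although their ratios were alike, the 2 Rspo2 regions differed in density. The short one had 36.3 normalized reads per kb in WT, rank 47 from the top among the 4999 H3K36me3 regions, and 5.17 in K36M. The long one had 21.4 in WT and 3.35 in K36M. In K36M the short region was thus still denser than the long one, and its K36M density was higher than that of 36.7% of H3K36me3 regions, against 2.74% for the long one.

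The H3K36me3 region beyond the gene had a ratio near the chromosome 15 median. It runs over 44.4 kb from 43069600 to 43113999, starts 69.6 kb above the gene interval and crosses the edge of the window. It held 1218 normalized reads in WT against 316.4 in K36M, 3.85-fold lower (3.62 to 4.10). Its log2 ratio of −1.94 deviated by −0.23 from the median of the mark and by −0.06 from that of chromosome 15. It was not among the ratios for which the locus was chosen, so its distance from the 2 regions over the gene is a description. Its WT density of 27.4 per kb was close to that of the Tnfrsf11b domain, and its K36M density of 7.13 was higher than that of 75.3% of H3K36me3 regions. In the RefSeq gene order of build GRCm38.p6 the protein-coding neighbours of Rspo2 are Angpt1 below and Eif3e above, and those of Tnfrsf11b are Samd12 and Colec10. The region was not assigned to a gene, since no annotation of the build of the tables was used.

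H3K36me2 at Rspo2 was listed in 2 regions, 1 on each side of the gene with 168.8 kb between them, and in these the ratios differed. The lower region, from 42774000 to 42832399, held 2619 normalized reads in WT against 415 in K36M, 6.31-fold lower (5.82 to 6.85). It shared 25.6 kb, or 43.8% of its length, with the long H3K36me3 region. The upper region, from 43001200 to 43054599, held 2314 in WT against 476.8 in K36M, 4.85-fold lower (4.49 to 5.25), and shared 1.4 kb with the short H3K36me3 region. Their counting intervals do not overlap. In WT the densities were nearly equal, 44.8 and 43.3 per kb, and in K36M they were 7.11 and 8.93. The upper region, which lies between the short H3K36me3 region and the one beyond the gene, deviated by −0.21 from the median of its mark, against −0.59 for the lower one. From the chromosome 15 median the upper region deviated by −0.13 and the lower one by −0.50.

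**Figure D2:**
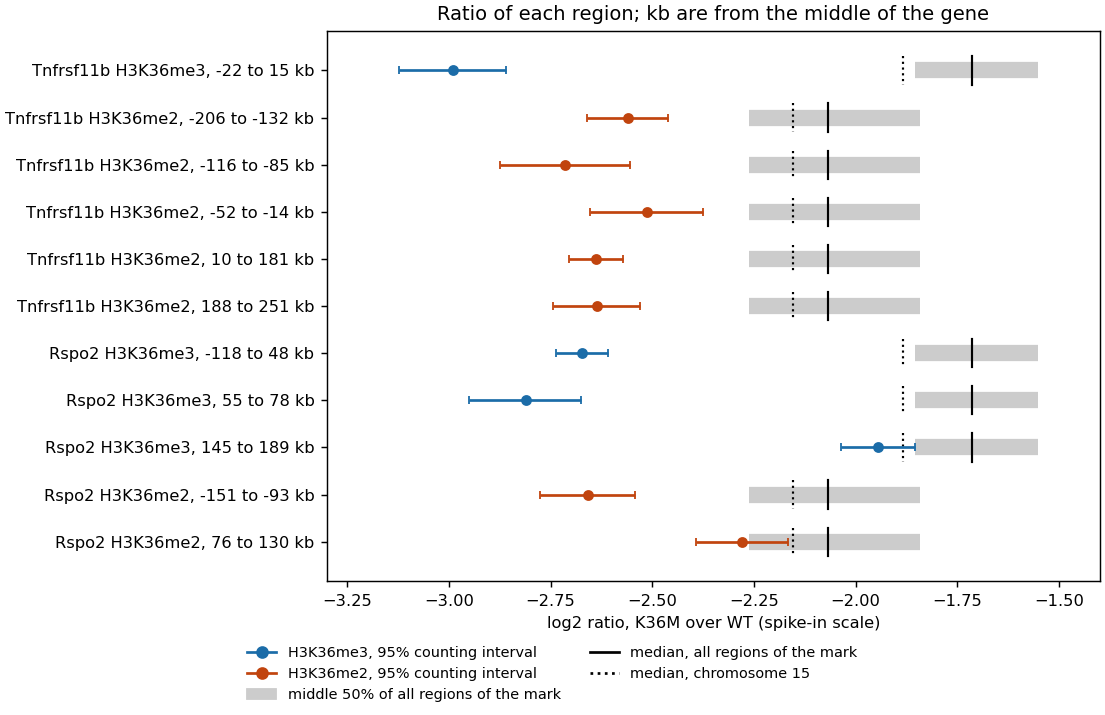
Log2 ratio of K36M over WT (x axis) for each of the 11 regions (y axis, named by gene, mark and distance from the middle of the gene in kb). Points are ratios of 1 library each with 95% counting intervals, grey bars the middle 50% of all regions of the mark, solid ticks its median and dotted ticks its chromosome 15 median. The Tnfrsf11b H3K36me3 region is lowest at −2.99, and the H3K36me3 region beyond Rspo2 (−1.94) and the upper H3K36me2 region of Rspo2 (−2.28) lie nearest to the medians.

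Read against the whole tables, all 4 H3K36me3 regions were at least 2-fold lower in K36M, as were 98.5% of the H3K36me3 regions, and 3 of the 4 were at least 4-fold lower, against 9.96%. For H3K36me3 this follows from the choice of the loci. All 7 H3K36me2 regions were at least 2-fold lower, where the share over all H3K36me2 regions was 97.0%, so this count says nothing particular about them. All 7 were also at least 4-fold lower, against 59.0% of all H3K36me2 regions and 64.3% of those on chromosome 15. The 4-fold threshold was added to the planned 2-fold one, and it lies close to the H3K36me2 median of 4.19-fold. The 7 ratios had ranks from 24 to 399 of 1691, counted from the lowest. Neighbouring regions share their surroundings and are not replicates of each other.

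The densities give both sides of these ratios. In WT the 7 H3K36me2 regions were denser than 55.4% to 81.1% of all H3K36me2 regions, and in K36M they were denser than 3.96% to 28.3%. The 3 H3K36me3 regions over the genes were denser than 70.9% to 99.1% of their mark in WT and than 2.74% to 36.7% in K36M. The 7 H3K36me2 regions were thus above the middle of their mark in WT and below it in K36M. So were the 3 H3K36me3 regions, but they were picked for low ratios, which favours both, so this is a description. The H3K36me3 region beyond Rspo2, which was not picked for its ratio, was above the middle in both libraries. Chromosome 15 regions were denser in WT, with medians of 44.6 per kb for H3K36me2 and 21.9 for H3K36me3. Against these the upper H3K36me2 region of Rspo2 (43.3) and the long H3K36me3 region (21.4) were below the middle in WT. The lower H3K36me2 region of Rspo2 (44.8) was close to it. In K36M all 7 H3K36me2 regions were below the chromosome 15 median of 10.5.

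**Figure D3:**
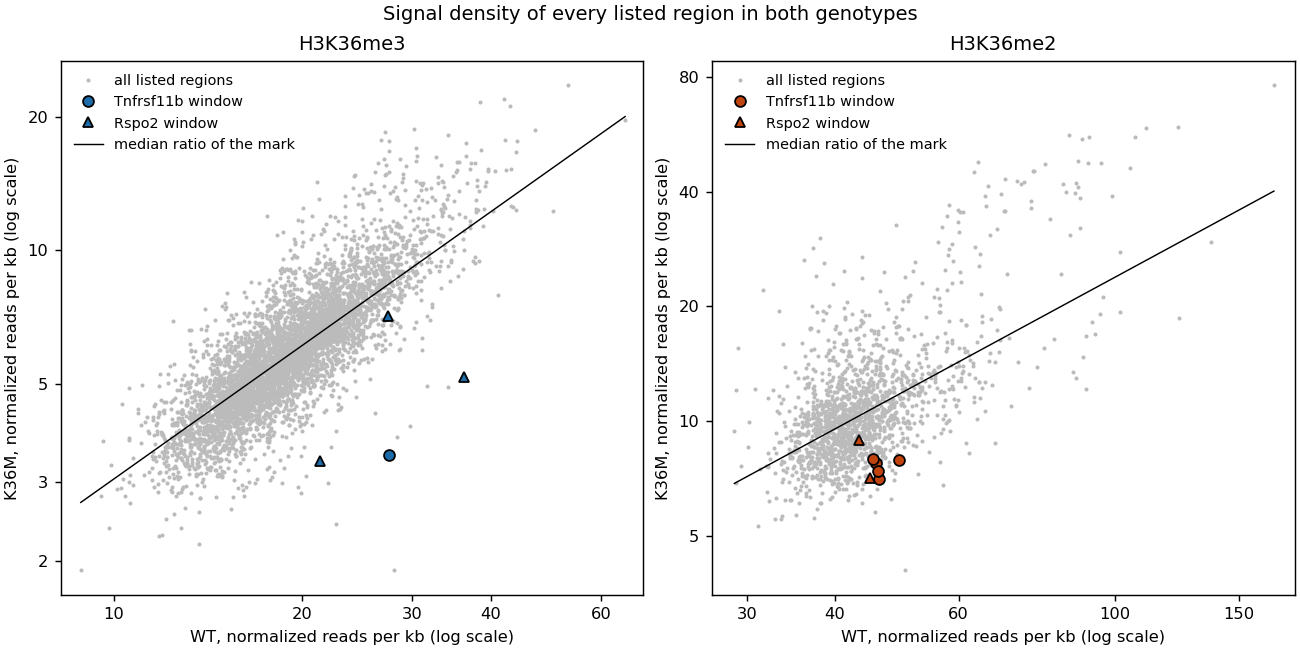
Normalized reads per kb in WT (x axis, log scale) and K36M (y axis, log scale) for every listed H3K36me3 (left) and H3K36me2 (right) region, with the regions at Tnfrsf11b (circles) and Rspo2 (triangles) in colour. The line is the median ratio of each mark: the 3 H3K36me3 regions over the genes lie far below it, and the H3K36me2 regions lie below it by less.

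No H3K27me3 region was listed in either window, so the mark of silenced chromatin could not be compared over the genes themselves. A table of 999 regions does not show that the mark is absent there. The H3K27me3 region nearest to Tnfrsf11b, from 53813600 to 53859799, ended 220.2 kb below the gene and held 356 normalized reads in WT against 145.9 in K36M, 2.44-fold lower. The next, from 53628400 to 53652199, had 235.6 and 82.9, 2.84-fold lower. The nearest to Rspo2, from 42633000 to 42651199, ended 198.8 kb below the gene and had 150.7 and 85.5, 1.76-fold lower. The log2 ratios of these 3, −1.29, −1.51 and −0.82, were all below the H3K27me3 median, and only 1.70% of H3K27me3 regions were at least 2-fold lower. Counted from the lowest of the 999 ratios, these 3 had ranks 7, 3 and 33. Farther below Rspo2, the regions from 41166200 to 41227199 and from 41069600 to 41075599 had −1.32 and −1.74, ranks 5 and 1. They lay 1623 kb and 1774 kb from the gene. Above Rspo2 the nearest regions had −0.68 and −0.25. Above Tnfrsf11b the nearest had −0.91, −0.67 and −0.12, the last above the chromosome 15 median of −0.22.

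The low ratios were not limited to the windows, since the medians of the regions around them were also below those of the marks. Single H3K36me2 regions there were above, as were single H3K36me3 regions from 1 to 5 Mb outside the windows. Within 1 Mb outside the windows, 31 H3K36me2 regions had a median log2 ratio of −2.46 and a range of −2.84 to −1.66, which holds all 7 H3K36me2 values of the windows. The same distance held 6 H3K36me3 regions between −2.42 and −1.86. The 3 H3K36me3 regions over the genes lay below these 6, as the choice of the loci favours, and the region beyond Rspo2 lay among them. From 1 to 5 Mb outside the windows, 31 H3K36me3 regions had a median of −1.97 and reached down to −3.23, below all 3 of the regions over the genes. Both distances were set after the values were seen. The 10.8 Mb between the windows were taken as a stretch after the values were seen. There 26 of 29 H3K36me2, 12 of 13 H3K36me3 and 5 of 5 H3K27me3 regions were below the median of their mark. Their median log2 ratios were −2.50, −2.23 and −0.96. Over all of chromosome 15 most regions were below the median of their mark as well. Its upper quartiles were −1.76 for H3K36me3 and −0.078 for H3K27me3, against mark medians of −1.71 and −0.084. For H3K36me2 the chromosome 15 median was −2.15 against −2.07. Beyond 5 Mb from both windows, the rest of chromosome 15 had medians of −2.07 for H3K36me2 (202 regions), −1.87 for H3K36me3 (238 regions) and −0.18 for H3K27me3 (98 regions), closer to those of the whole tables. Between the windows, the medians of the listed regions were therefore below those of the marks for all 3 marks, H3K27me3 included. These regions covered 12.6% of that stretch for H3K36me2, 5.54% for H3K36me3 and 1.89% for H3K27me3. The highest of the 5 H3K27me3 regions there had −0.25, close to the chromosome 15 median of −0.22. The part of the shift shared by the 3 marks in the values at Tnfrsf11b and Rspo2 was not tested.

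**Figure D4:**
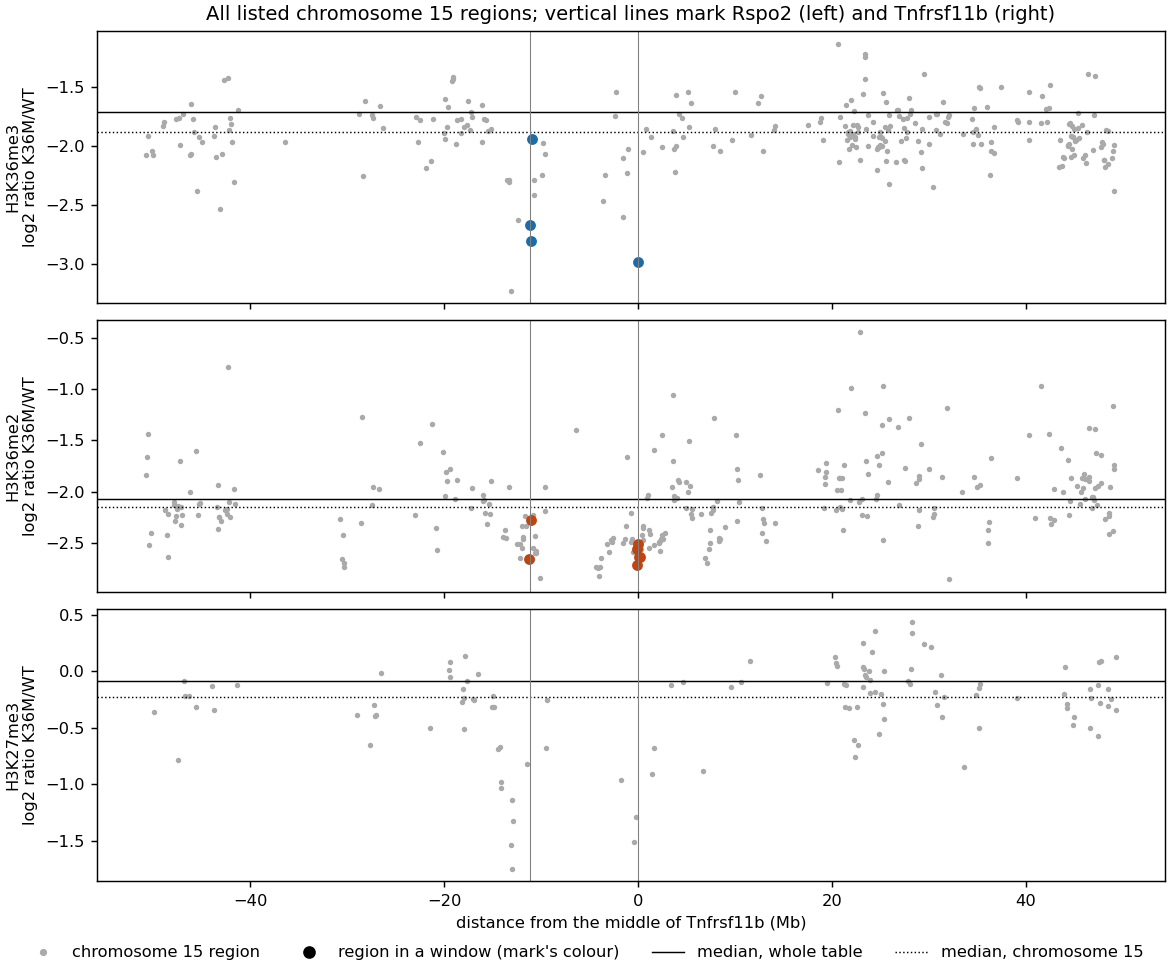
Log2 ratio of K36M over WT (y axis) of every listed chromosome 15 region against its distance from the middle of Tnfrsf11b (Mb, x axis) for the 3 marks. Coloured points are the regions in the windows, vertical lines mark Rspo2 (left) and Tnfrsf11b (right), and horizontal lines are the medians of the whole table (solid) and of chromosome 15 (dotted). Most values of all 3 marks around and between the genes are below the medians of the whole tables.

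The nearest regions inside and outside the selection can be given in the same way. Next to the Tnfrsf11b window, the H3K36me2 region from 54352200 to 54376399 was 5.89-fold lower and the one from 54391200 to 54464999 was 5.35-fold lower, against 6.22-fold for the last region inside. The nearest H3K36me3 regions, from 54572000 to 54590999 and from 52964400 to 53176799, were 4.15-fold and 4.06-fold lower. They lay 462 kb and 903 kb from the gene. Just above the Rspo2 window, the H3K36me2 region of 1.8 kb from 43114600 to 43116399 was 6.29-fold lower (4.26 to 9.50). It had only 35 reads in K36M, so its counting error was large. The one from 43169000 to 43239399 was 5.85-fold lower, and below the window the region from 42483400 to 42534399 was 5.05-fold lower. Above this window, the H3K36me3 regions from 43309400 to 43348399 and from 43355200 to 43373399 were 4.90-fold and 5.35-fold lower. Below it, the nearest H3K36me3 regions were much farther from the gene. That from 41620600 to 41698599, 1151 kb away, was 6.20-fold lower. That from 40926200 to 40937399, 1913 kb away, was 9.38-fold lower (7.73 to 11.5). Its ratio was below that of any region in the windows, but its counting interval overlapped that of the Tnfrsf11b domain. The next, from 40756600 to 40813199, 2037 kb away, was 4.95-fold lower. In the order of H3K36me3 ratios, the Tnfrsf11b domain (0.126) stood between 0.107 and 0.134, the short Rspo2 region (0.142474) between 0.142443 and 0.144, and the long one (0.157) between 0.156 and 0.159.

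The H3K36me3 regions most like each gene's domain were sought among those outside the gene's own window. Log2 ratio, log2 WT density and log2 length were used together, each in units of its SD over all 4999 regions. For Rspo2 this left out the short region and the one beyond the gene. For Tnfrsf11b these were a region on chromosome 1 from 135806600 to 135817799, 7.39-fold lower, the short Rspo2 region itself, and a region on chromosome 10 from 83826800 to 83906999, 6.94-fold lower. For the long Rspo2 region they were on chromosome 12 from 96932800 to 97025999, 6.17-fold lower, on chromosome 2 from 109758600 to 109863599, 5.79-fold lower, and on chromosome 9 from 95539000 to 95632599, 7.02-fold lower. The distances were 1.37 to 1.44 SD for Tnfrsf11b and 0.669 to 0.864 SD for Rspo2, so no region came as close to the Tnfrsf11b domain as 3 did to the Rspo2 one. As both loci were picked for low ratios, their likeness to each other is a description.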

How the data were processed

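Regions and values were taken as deposited: 1 table per mark, with 1 signal value per genotype, which per the file headers is the reads of each peak normalized by the authors to the Drosophila spike-in. Per the submitters' processing notes, the builds were mm9 and dm6 and the tools included Bowtie 1.0.0. How peaks were called and how the factor was computed is not stated in the labels or headers. All values of a column are whole multiples of 1 step (0.39 and 0.22 for H3K36me3 in WT and K36M, 1.08 and 0.52 for H3K36me2, 0.18 and 0.26 for H3K27me3), and reads were taken as value divided by step.

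Each ratio is K36M over WT with no pseudocount, and its deviation is the log2 ratio minus the median of the mark, which does not depend on the spike-in factors. Medians weight regions equally. Regions were named by rule: all in the windows, the 3 nearest per side and mark, and the 3 most like each gene's H3K36me3 region; only some of the neighbours are printed. Loci, windows and alternatives were chosen with earlier results of these data known. The 1 Mb and 5 Mb distances and the stretch between the windows were set after the values were seen. Lists of pathway genes could not be applied without an annotation of mm9. Calculations were tested on simulated counts. Python 3.11.15, numpy 2.4.6, pandas 2.3.3, scipy 1.17.1 and matplotlib 3.10.9 were used.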

Additional observations from a re-analysis of the deposited data

How the results depend on the processing

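No paired analysis was possible because each mark has 1 library per genotype, and for the same reason no replicate could be left out. Of 128 recomputed values, 76 stayed within the counting interval or within 1.5 times a count or rank, 52 moved, and no log2 ratio or deviation changed sign. With the 5th percentile added to both values as a pseudocount, Tnfrsf11b H3K36me3 had a log2 ratio of −2.54 and deviations of −1.09 from the mark and −0.92 from chromosome 15. The long Rspo2 region had −2.56, −1.11 and −0.93, so the order of the 2 loci turned. With both libraries scaled to the same total the log2 ratios were −1.27 and −0.96, and 10 H3K36me3 and 2 H3K36me2 regions were at least 2-fold lower, because equal totals take out the difference common to all regions. Among the regions of higher mean signal (the median or more), which are fewer, the ranks were 1 and 8. Only 2 H3K36me2 regions met the Tnfrsf11b gene interval itself and 0 that of Rspo2. At 1.5-fold, 81 H3K27me3 regions were lower. Medians over regions of similar length, similar WT density or on autosomes left the 11 deviations between −1.28 and −0.20.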
